A study of Mus musculus with 8 samples.

Results

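The sperm small RNAs described here are the 18S ribosomal RNA fragments listed on the plus strand of 1 copy of the 45S ribosomal repeat on mouse chromosome 17. Each listed name was kept once, at its first locus after sorting by chromosome and start, and those kept between bases 39845001 and 39848830 of chromosome 17 (mm10) were taken. This gave 4042 of the 13450 names in the table of the MC-LR experiment and 4828 of the 17375 names in the table of the shRNA experiment. Of these, 3496 occur in both tables, and the tables together hold 5374 such names among 20210. All are listed under piRNA names, and they are called fragments below because each is a stretch of the same ribosomal RNA. Sperm came from Balb/c mice labelled post natal month 8, in 4 groups of 2 libraries (A and B). The groups were sperm after exposure to MC-LR, a cyanobacterial liver toxin that inhibits protein phosphatases, its unexposed control, sperm with an Hsp90aa1 shRNA, and its negative-control shRNA. Hsp90aa1 encodes the inducible cytosolic HSP90 chaperone. The labels give no dose of MC-LR, no route by which the shRNA was delivered and no target sequence. Nothing in them says that A and B were different animals or cultures, so every p-value below rests on a spread between libraries that may be technical only. The tables list small RNAs, so the Hsp90aa1 transcript could not be checked here, and no sperm marker gene is in them.

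Ribosomal RNA is transcribed by RNA polymerase I as a long precursor, the 45S RNA, from which the 18S, 5.8S and 28S RNAs are cut while the external and internal transcribed spacers are removed. The 18S RNA is the backbone of the small ribosomal subunit. Sperm have largely shut down translation, and fragments of ribosomal RNA are a known major class of their small RNA, beside transfer RNA fragments, microRNAs and piRNAs. Piwi-interacting RNAs are made in the testis from precursors cut by nucleases and bound by PIWI proteins, and those loaded first usually begin with U.

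In the GENCODE annotation the 18S transcript of this copy belongs to CT010467.1 at chr17:39846353-39848201, which is 1849 bases long and is annotated on the minus strand, and RefSeq lists the pseudogene Rn18s-rs5 with the same length and a start 1 base further on. The lincRNA genes Gm42418 on the plus strand and AY036118 on the minus strand are annotated over part of it. All fragments were on the plus strand, with 0 minus-strand rows in the window, and positions below count from the first base of the 18S. Fragments inside the 18S numbered 4041 of 4042 in the MC-LR table and 4826 of 4828 in the shRNA table. The other 1 and 2 began at base 1850 or 1851, directly past the 18S, where the first internal transcribed spacer begins. No fragment lay in the external spacer part of the window, upstream of the 18S. The nearest name kept before the fragments on this strand ended at base 39844637 of the chromosome in the MC-LR table and at 39844516 in the shRNA table, so the boundary of the window cut through no group of names.

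Fragments that begin at the same base form a ladder of lengths. The longest fragment at each of the 5 strongest starts of either table is shown 5′ to 3′, since the results turn on these starts, with the bases of the shortest fragment listed there in capitals (mm10, plus strand).
piR-mmu-52717952, from base 171: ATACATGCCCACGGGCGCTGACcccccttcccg
piR-mmu-67898258, from base 753: CTCTCGGCGCCCCCTCGATgctcttagctg
piR-mmu-32176370, from base 1031: ATCAAGAACGAAAGTCGGAgtttcgaagac
piR-mmu-340183, from base 1383: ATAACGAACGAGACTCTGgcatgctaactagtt
piR-mmu-128979, from base 1385: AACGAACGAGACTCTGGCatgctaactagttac
piR-mmu-67675526, from base 1386: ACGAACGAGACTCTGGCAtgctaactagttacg
piR-mmu-53850274, from base 1387: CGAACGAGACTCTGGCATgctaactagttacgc
piR-mmu-52708032, from base 1390: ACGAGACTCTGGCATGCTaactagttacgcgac
piR-mmu-51862903, from base 1515: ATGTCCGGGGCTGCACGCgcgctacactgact
piR-mmu-51689065, from base 1516: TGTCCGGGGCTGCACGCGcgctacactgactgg

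The starts from base 1383 to base 1390 lie within one another's fragments. They are marked in capitals in the stretch from base 1371 to base 1422, chr17:39847723-39847774.
18S bases 1371 to 1422: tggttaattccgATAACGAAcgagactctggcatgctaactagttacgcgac

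Levels are given in RPM, which sets the reads of a name against all reads of its library. Those library totals were recovered as 5941139 and 6560723 reads for MC-LR, 14634370 and 4960467 for control, 13360928 and 10832261 for the Hsp90aa1 shRNA and 9710383 and 13380630 for the negative-control shRNA. The median fragment had 13 and 15 reads under MC-LR against 97 and 34 in control, and 8 and 5 reads with the Hsp90aa1 shRNA against 47 and 52 with the negative-control shRNA. The rule by which the names were listed is not given. The highest log2 ratio of group means of any fragment was -0.67 in the MC-LR table and -1.05 in the shRNA table, and in both tables most other names were lower too. The part of the listing rule in the fragments' direction cannot be told apart from a difference between the groups. Of the fragments, 1488 and 1929 were also listed at other loci, chromosome 6 being one of them for 1244 and 1590, and the values were the same at every locus for 1462 and 1882. A further 1168 and 1265 names with a row in the window were kept at an earlier locus and are not counted as members. A fragment's level is therefore the level of its sequence, which several ribosomal copies can give.

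The fragments began at 902 different bases in the MC-LR table and 914 in the shRNA table, 48.7% and 49.3% of the bases of the 18S, and ended at 932 and 945 bases. The first start was base 59, and the longest stretch without a start ran between bases 69 and 109 in the MC-LR table and 69 and 108 in the shRNA table. These values hold for the kept fragments only. Names with a row in the window that were kept at an earlier locus begin from base 1 on in both tables. The starts they would add are not counted here. The level was far less even than the starts. The 10 strongest starts of each library held 27.9% and 25.6% of the fragments' level under MC-LR against 28.4% and 28.6% in control. The same share was 26.4% and 21.01% with the Hsp90aa1 shRNA against 20.504% and 26.1% with the negative-control shRNA. The 100 strongest starts held 56.2% to 70.2% across the 8 libraries. The 10 strongest ends held 18.2% to 25.8%, less than the 10 strongest starts in each of the 8 libraries. Among stretches of 100 bases, the one from base 1301 to base 1400 had the largest level in both MC-LR, both control and both negative-control shRNA libraries. In the Hsp90aa1 shRNA libraries the stretch of 100 bases that holds base 171 was higher, at 1022 and 831 RPM beside 910 and 684 RPM. The stretch from base 1301 to base 1400 held 30.5% and 27.5% of the fragments' level under MC-LR against 29.03% and 31.8% in control, with overlapping groups. It held 12.1% and 13.1% with the Hsp90aa1 shRNA against 19.6% and 20.7% with the negative-control shRNA, without overlap. This difference was not tested, and an exact permutation of 2 against 2 libraries could not give a p below 0.333.

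**Figure D1:**
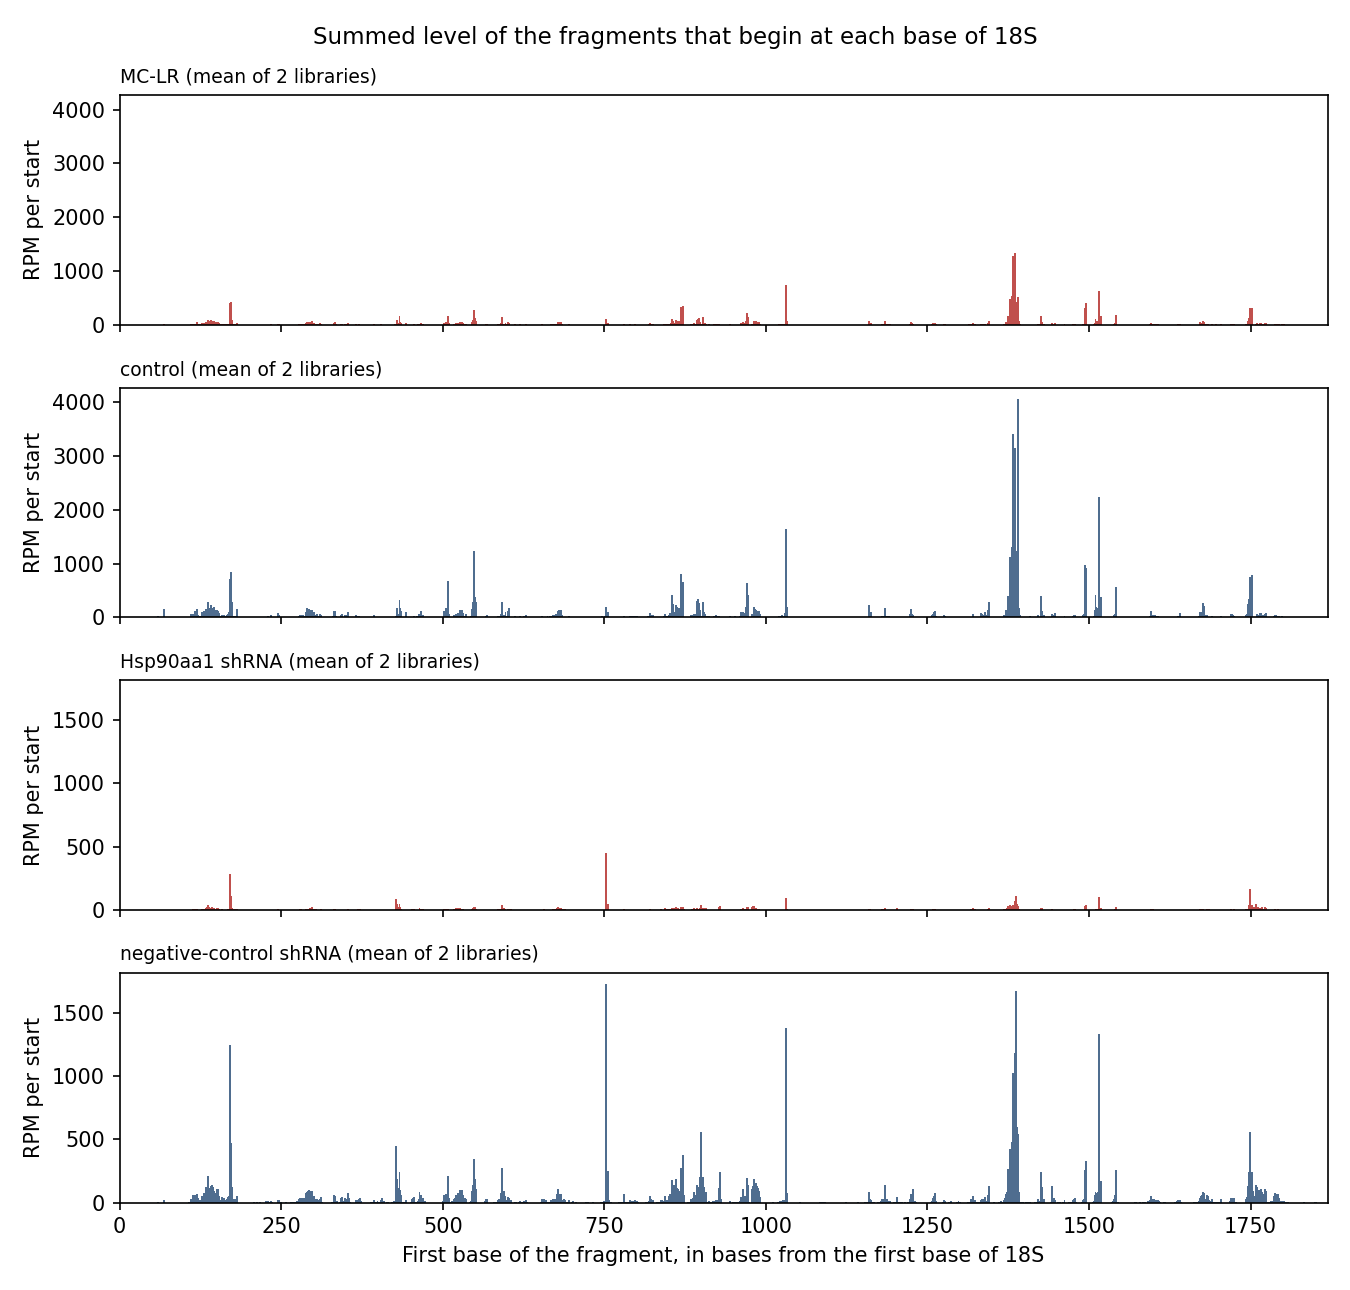
Summed level in RPM (vertical axis) of all fragments that begin at each base of 18S (horizontal axis), as the mean of the 2 libraries of each group; the panels of each experiment share a scale. The tallest bars stand near bases 171, 753, 1031, 1383 to 1390 and 1515 to 1516, and those of the MC-LR and Hsp90aa1 shRNA panels are lower than those of their control panels.

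The profile along the 18S was alike between libraries. Over the 902 starts of the MC-LR table, Pearson's r of log2(RPM + 1) was 0.985 between the MC-LR libraries, 0.967 between the control libraries and 0.964 to 0.975 between libraries of different groups. Over the 914 starts of the shRNA table it was 0.9502 between the Hsp90aa1 shRNA libraries, 0.968 between the negative-control libraries and 0.893 to 0.946 between groups. Over the 841 starts found in both tables it was 0.770 to 0.884 between libraries of different experiments. The points share libraries and overlapping reads, so these are descriptions.

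In the MC-LR table, base 1383 had the largest level averaged over the 4 libraries, though it came second in each, with 1433 and 1130 RPM under MC-LR against 3232 and 3571 RPM in control. Base 1390 had the next largest average, with 573 and 473 RPM under MC-LR against 4222 and 3915 RPM in control. Base 1386, the highest start in both MC-LR libraries, had 1458 and 1222 RPM under MC-LR against 3147 and 3149 RPM in control, and base 1385 with 957 and 773 RPM against 2043 and 1896 RPM. At each of these starts the groups did not overlap. The order of the starts differed between groups, since base 1390 was the highest of them in both control libraries and below bases 1383, 1385 and 1386 in both MC-LR libraries. Base 1516 had 585 and 522 RPM under MC-LR against 2980 and 1495 RPM in control, so the control libraries differed there by more than the MC-LR level itself.

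In the shRNA table, base 753 had the largest level averaged over the 4 libraries and was the highest start in both Hsp90aa1 shRNA libraries, with 641 and 261 RPM with the Hsp90aa1 shRNA against 1399 and 2057 RPM with the negative-control shRNA. Base 1387 had 159 and 65.2 RPM with the Hsp90aa1 shRNA against 1166 and 2167 RPM with the negative-control shRNA. Base 171 had 328 and 247 RPM with the Hsp90aa1 shRNA against 1168 and 1319 RPM, base 1031 had 102 and 93.7 RPM against 1445 and 1318 RPM, and base 1515 had 153 and 45.7 RPM against 961 and 1695 RPM. All 5 starts were lower in both Hsp90aa1 shRNA libraries. In the MC-LR table base 753 ranked only 62nd, with 95.3 and 123 RPM under MC-LR against 229 and 157 RPM in control. There were 5 fragments at this start in the MC-LR table, against 12 fragments in the shRNA table, and its 24 nt and 25 nt fragments were not analysed in the MC-LR table. A difference in rank between the tables cannot be told apart from a difference in which names they list.

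Fragments were 17 to 35 nt long, with a median of 27 nt in both tables, and the length classes differed between the libraries of a group. The level-weighted mean length was 26.0 and 26.0 nt under MC-LR against 25.2 and 27.1 nt in control (exact 2-sided permutation test, p = 1). It was 25.7 and 27.6 nt with the Hsp90aa1 shRNA against 26.5 and 24.8 nt with the negative-control shRNA (exact 2-sided permutation test, p = 0.667). The groups overlapped in both experiments. Control A had 22.8% of its fragment level in fragments of 29 to 35 nt and control B had 40.6%, with both MC-LR libraries between them at 29.5% and 30.9%. Among the shRNA libraries this share was 22.4% and 42.6% with the Hsp90aa1 shRNA against 33.2% and 19.3% with the negative-control shRNA. The names outside the fragments moved with them: their level-weighted mean length was 25.2 and 25.1 nt under MC-LR against 24.8 and 26.7 nt in control, and 24.9 and 27.3 nt with the Hsp90aa1 shRNA against 25.8 and 23.9 nt with the negative-control shRNA. In each library the 18S fragments were longer on average than the other listed names.

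**Figure D2:**
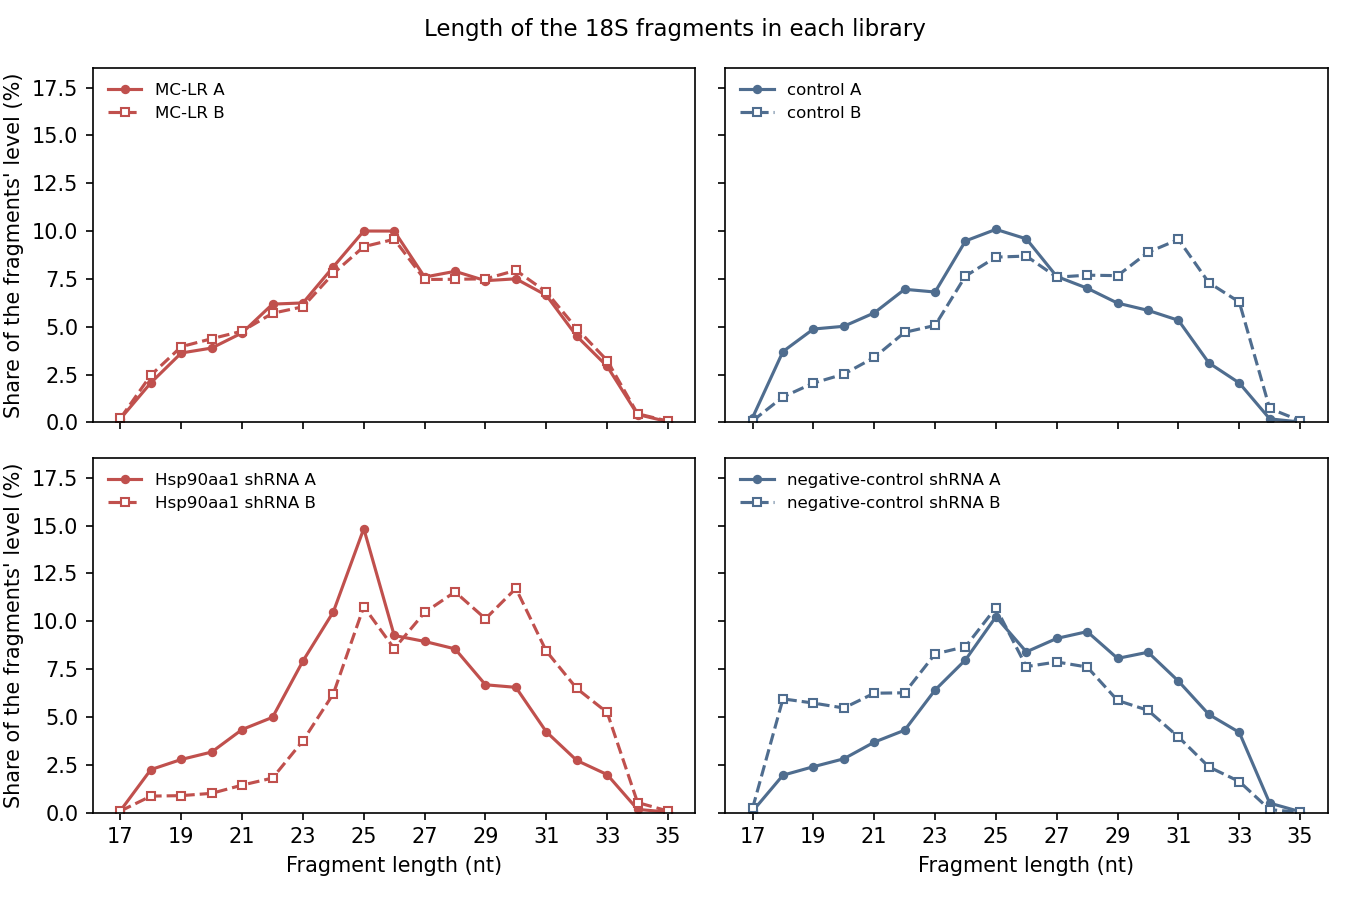
Share of the fragments' level (vertical axis, percent) at each length in nt (horizontal axis), 1 panel per group and 1 line per library (solid line A, dashed line B). The MC-LR libraries nearly coincide, while control B has more of its level at 31 nt (9.57%) than control A (5.34%), and the Hsp90aa1 shRNA libraries differ most at 30 nt (6.55% in A and 11.7% in B).

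A longer fragment was not regularly rarer than the next shorter one. Among pairs of fragments with the same start and 1 nt of difference, the longer had the higher mean level in 1142 of 2246 pairs in the MC-LR table and 1648 of 3067 pairs in the shRNA table. Fragments at 1 start share almost all of their sequence, so they are not independent measurements of a condition.

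Fragments that begin with A held 43.2% and 42.4% of the level under MC-LR against 41.0% and 42.2% in control, and 31.6% in both Hsp90aa1 shRNA libraries against 35.3% and 36.9% in the negative-control libraries. The 18S itself holds 22.7% A. Fragments that begin with T (U in the RNA), the usual first base of primary piRNAs, held 21.4% to 25.6% of the level in the 8 libraries, beside 21.9% T in the 18S. An A at the tenth base, the usual mark of piRNAs made by the ping-pong cycle, was found in fragments with 20.9% to 27.4% of the level. Among the strong starts, bases 171, 1031, 1383, 1385, 1386, 1390 and 1515 are all A. Their part in the share for a first A was not tested.

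MC-LR was compared with control to ask which sperm small RNAs differ after exposure. The 18S fragments summed to 29613 and 26497 RPM under MC-LR against 83340 and 75782 RPM in control, a 2.84-fold lower mean (log2 ratio -1.50, exact 2-sided permutation test, p = 0.333, the smallest possible). Tested one by one with limma on log2(RPM + 1), over the whole table, 2983 of 3998 tested fragments were lower at an adjusted p below 0.05. That is 74.6% of them, where 73.1% of all tested names were called lower, so the share is close to the background. No fragment was called higher by limma, edgeR or DESeq2, and 0 had an unadjusted p below 0.05 upward in limma, while 2.37% of all tested names were called higher. Both MC-LR libraries lay below both control libraries for 3843 of the 4042 fragments, where 92.6% of all names did so. The median log2 fold change was -1.17 for the fragments and -1.17 for all names.

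These counts depend on the scale. Relative to the other listed names, the fragments were not lower: they made up 23.8% and 22.6% of the listed level under MC-LR against 21.9% and 21.5% in control. When edgeR scaled the libraries by TMM factors, which centre the listed names, the median of all names moved to 0.06. Of 3998 fragments, 13 were then called lower and 0 higher. At an unadjusted p below 0.05, 124 fragments were lower and 100 higher, and the share of all names at that threshold was not computed. At an adjusted p below 0.05 in that fit 2.17% of all names were called lower, and 288 names were lower and 315 higher in all. Scaling to the sum of the listed names gave 26 lower fragments beside 4.12% of all names. DESeq2 gave 16 lower of the 2937 fragments with an adjusted p, beside 4.13% of all such names. On the original scale, the fragments' median log2 fold change was -1.18 after dropping MC-LR A and -1.16 after dropping MC-LR B. Each of these fits holds a single MC-LR library, so only the medians are read and counts of calls from them carry no weight.

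The 6 most abundant fragments had ratios of group means closer to 1 than the median fragment, 1.72-fold to 2.48-fold lower beside a median log2 ratio of -1.60. The most abundant, piR-mmu-32176370 (30 nt, bases 1031 to 1060), had 406 and 369 RPM under MC-LR against 534 and 939 RPM in control, with a log2 fold change of -0.87 ± 0.37 (SE, limma, adjusted p = 0.0498). The fragments piR-mmu-322167 (29 nt) and piR-mmu-24601216 (28 nt) both begin at base 1386. The 29 nt fragment had 379 and 366 RPM under MC-LR against 602 and 679 RPM in control, and the 28 nt fragment had 355 and 226 RPM against 533 and 512 RPM. Their groups did not overlap, and they were 1.72-fold and 1.80-fold lower under MC-LR, where the sum was 2.84-fold lower. The fragment piR-mmu-22671856 (26 nt from base 171) had 389 and 321 RPM under MC-LR against 675 and 560.0 RPM in control. The fragment piR-mmu-2000614 (31 nt from base 1383) had 269 and 178 RPM under MC-LR against 421 and 690 RPM in control. The fragment piR-mmu-29441222 (25 nt from base 1752, listed at 2 loci) had 312 and 191 RPM under MC-LR against 659 and 553 RPM in control. All 6 passed the test, with adjusted p-values of 0.00991 to 0.0498 in limma. The most abundant short fragment, piR-mmu-31182521 (24 nt from base 1031), had 194 and 187 RPM under MC-LR against 544 and 466 RPM in control, a log2 fold change of -1.40 ± 0.33 (SE, limma, adjusted p = 0.00457).

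The 5 largest falls under MC-LR among fragments of at least median level all began at base 1390. They were piR-mmu-2008060, piR-mmu-1382758, piR-mmu-10932172, piR-mmu-52883220 and piR-mmu-5232134, of 28, 29, 30, 31 and 32 nt. The 31 nt fragment had 45.6 and 43.4 RPM under MC-LR against 587 and 872 RPM in control, a log2 fold change of -3.98 ± 0.35 (SE, limma, adjusted p = 0.000243). The 28 nt fragment had 4.21 and 5.94 RPM under MC-LR against 83.4 and 88.9 RPM in control, and the 30 nt fragment had 26.6 and 21.2 RPM against 263 and 353 RPM. Their folds of group means ran from 12.9 to 16.97. The 33 nt fragment of this start, piR-mmu-52708032, had 25.2 and 19.4 RPM under MC-LR against 170 and 432 RPM in control.

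Base 1390 stood apart from its neighbours within the same libraries, a contrast chosen after its values were seen. The 14 fragments that begin there summed to 523 ± 70.5 RPM under MC-LR and 4068 ± 217 RPM in control (SD, n = 2 each), 7.78-fold lower. The 95 fragments that begin at bases 1383 to 1389 summed to 5019 ± 790 RPM under MC-LR and 13208 ± 248 RPM in control, 2.63-fold lower. Start 1390 thus reached 10.3% and 10.6% of its neighbours' level under MC-LR against 32.4% and 29.3% in control. Among fragments of 28 to 33 nt these percentages were 4.07% and 4.62% under MC-LR against 23.0% and 24.4% in control, and among those of 17 to 27 nt they were 17.5% and 17.6% against 40.2% and 38.2%. The libraries of each group were close together and the groups far apart in both length ranges. A permutation over 2 against 2 libraries cannot show this below an exact p of 0.333.

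In the TMM-scaled edgeR fit, all 6 fragments of 28 to 33 nt from base 1390 were called lower, with log2 fold changes of -2.38 to -1.99 and adjusted p-values of 0.00278 to 0.0324. They made up 6 of the 13 fragments called there. All 6 were also called on the list-sum scale, where 7 of 26 calls began at this base. The neighbouring starts had none among the TMM-scaled calls. The remaining 7 calls were scattered and are named after their values were seen, with piR-mmu-6368496 and piR-mmu-48867814 both beginning at base 1340 and the others at bases 116, 788, 1025, 1516 and 1683, one each. In the shRNA table start 1390 did not stand apart in this way: it reached 7.72% and 7.92% of its neighbours' level with the Hsp90aa1 shRNA against 9.11% and 8.56% with the negative-control shRNA. For its fragments of 28 to 33 nt these were 6.22% and 7.12% with the Hsp90aa1 shRNA against 6.68% and 6.36%, with overlapping groups. Whether the MC-LR and shRNA contrasts differ at this base was not tested.

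**Figure D3:**
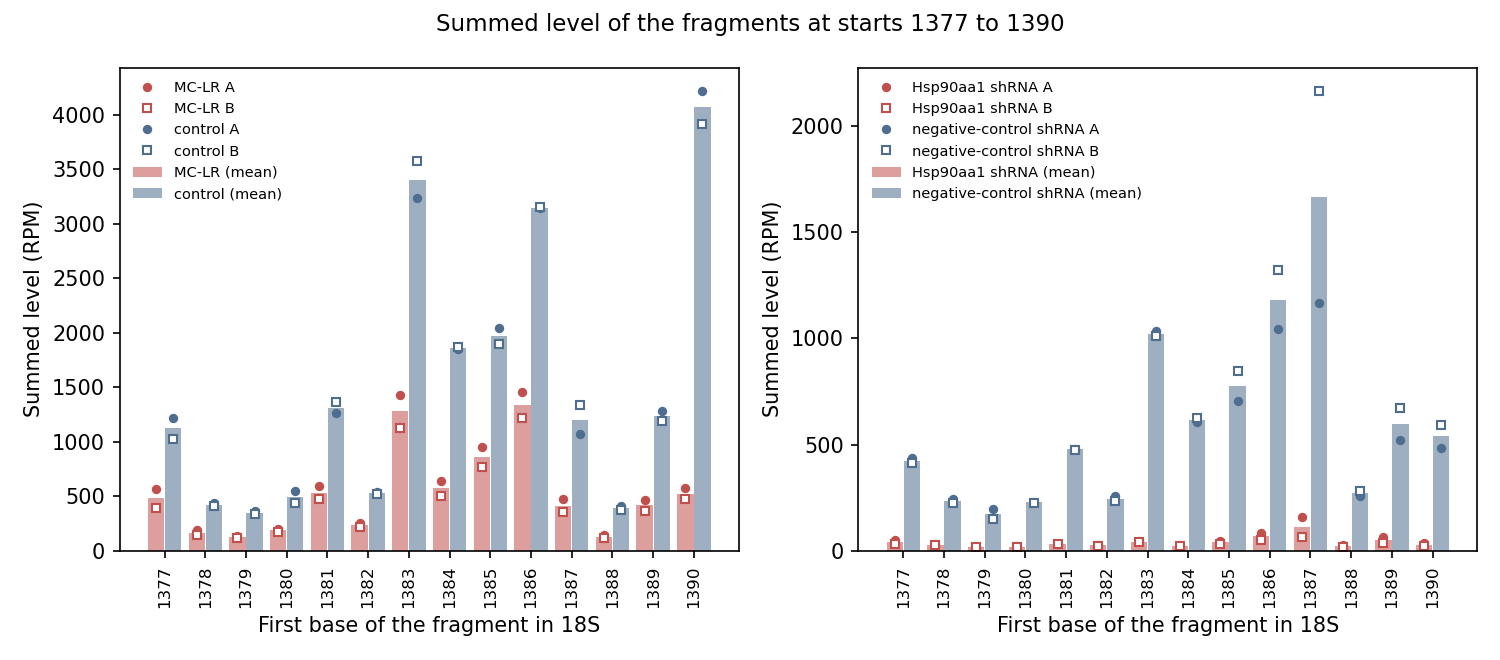
Summed level in RPM (vertical axis) of fragments beginning at each base from 1377 to 1390 of 18S (horizontal axis), in the MC-LR experiment (left) and the shRNA experiment (right); bars are group means, filled circles library A and open squares library B. In control the bar at base 1390 is the tallest at 4068 RPM, and under MC-LR it is 523 RPM, below the bars at bases 1383, 1385 and 1386.

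**Figure D4:**
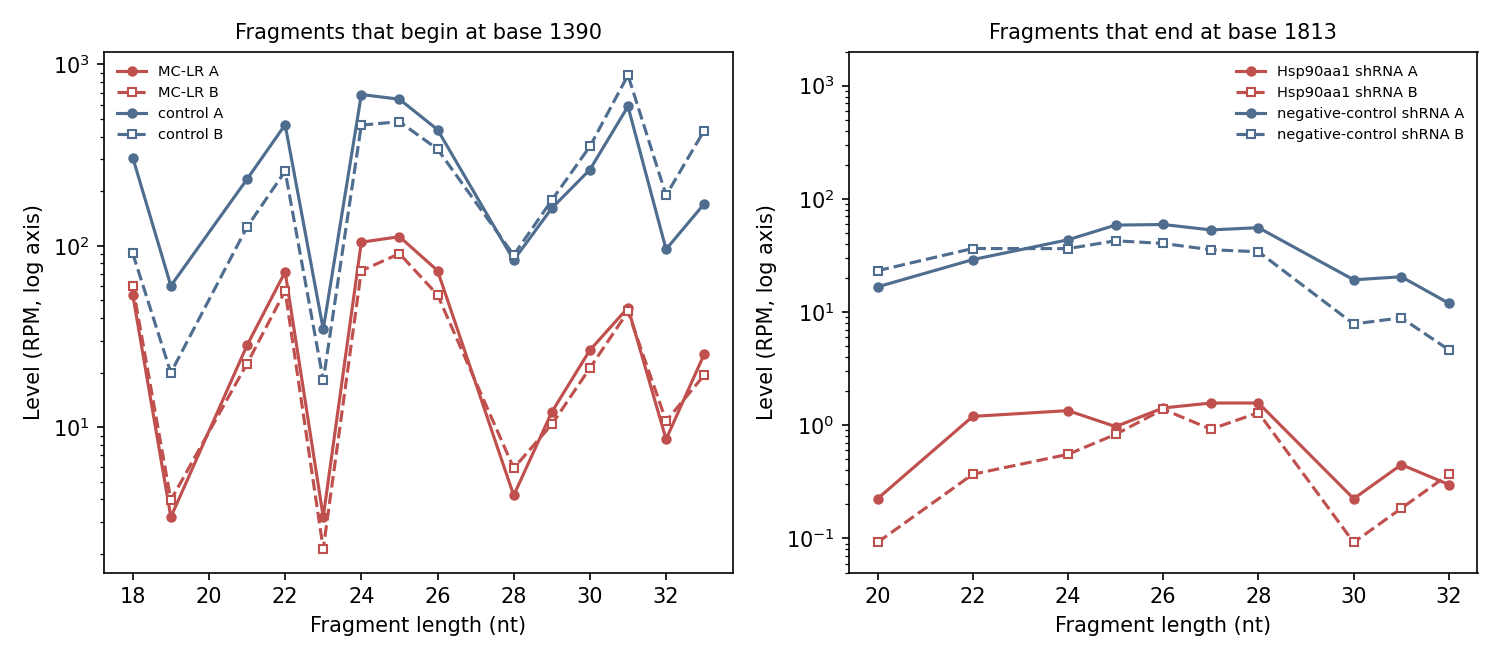
Level in RPM on a log axis (vertical) by fragment length in nt (horizontal) for fragments that begin at base 1390 in the MC-LR experiment (left) and for fragments that end at base 1813 in the shRNA experiment (right), 1 line per library. At base 1390 the gap between groups is widest at 28 to 33 nt, and at end 1813 both Hsp90aa1 shRNA libraries lie at or below 1.57 RPM at every length.

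The Hsp90aa1 shRNA was compared with its negative-control shRNA. The 18S fragments summed to 7542 and 5200 RPM with the Hsp90aa1 shRNA against 49223 and 51057 RPM with the negative-control shRNA, a 7.87-fold lower mean (log2 ratio -2.98, exact 2-sided permutation test, p = 0.333, the smallest possible). In limma, 4689 of 4697 tested fragments were lower at an adjusted p below 0.05, or 99.8%, where 99.5% of all tested names were. A mean of 1 RPM in either group was enough to be tested. The median fragment had 8 and 5 reads with the Hsp90aa1 shRNA, where 1 read is 0.0749 and 0.0923 RPM. Many fragments were therefore tested only through the negative-control libraries, and the calls of those carry no weight. No fragment was called higher by limma, edgeR or DESeq2, 0 had an unadjusted p below 0.05 upward in limma, and 0.219% of all tested names were called higher. All 4828 fragments had both Hsp90aa1 shRNA libraries below both negative-control libraries, as did 99.8% of all names. The median log2 fold change was -1.72 for the fragments and -1.66 for all names. Fragments made up 15.4% and 16.5% of the listed level with the Hsp90aa1 shRNA against 17.8% and 15.8% with the negative-control shRNA, with overlapping groups. With TMM factors the median of all names moved to -0.03. In that edgeR fit 1 fragment was called lower and 0 higher, where 0.125% of all names were called lower. At an unadjusted p below 0.05, 292 fragments were lower and 102 higher, and the share of all names at that threshold was not computed. The list-sum scale gave 3 lower fragments beside 0.243% of all names, and a log2 ratio of the summed level of -0.074 in place of -2.98.

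The most abundant fragment of this table, piR-mmu-5123523 (25 nt, bases 753 to 777, listed at 2 loci), had 443 and 192 RPM with the Hsp90aa1 shRNA against 1013 and 1426 RPM with the negative-control shRNA. Its log2 fold change was -2.04 ± 0.75 (SE, limma, adjusted p = 0.0220), and the Hsp90aa1 shRNA libraries differed from each other by more than 2-fold. The fragment piR-mmu-16059663 (27 nt from base 171) had 114 and 97.0 RPM with the Hsp90aa1 shRNA against 519 and 575 RPM. The fragment piR-mmu-66982450 (28 nt from base 1031) had 35.03 and 31.8 RPM with the Hsp90aa1 shRNA against 429 and 388 RPM. Both were lower with close replicates, by 5.18-fold and 12.2-fold. The other 3 of the 6 most abundant were short. The fragment piR-mmu-36426203 (23 nt from base 1515) had 96.0 and 28.2 RPM with the Hsp90aa1 shRNA against 604 and 1027 RPM. The fragments piR-mmu-49113244 (21 nt) and piR-mmu-49095386 (18 nt) begin at base 1387, and the 18 nt fragment had 33.3 and 7.94 RPM with the Hsp90aa1 shRNA against 216 and 799 RPM. Among the short fragments library A was above B in the Hsp90aa1 shRNA group and below B in the negative-control group, as in the length shares. All 6 passed limma, with adjusted p-values of 0.000783 to 0.0220. Among long fragments piR-mmu-32176370 (30 nt from base 1031) led, with 24.03 and 29.2 RPM with the Hsp90aa1 shRNA against 411 and 296 RPM.

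The shRNA difference varied more along the 18S than the MC-LR difference. In bins of 100 bases with at least 20 fragments, the log2 ratio of the summed level ranged from -3.67 at bases 1301 to 1400 to -2.14 at bases 701 to 800 in the shRNA table. It ranged from -1.70 at bases 1601 to 1700 to -1.25 in the bin that holds base 1031 in the MC-LR table. The bin at bases 1301 to 1400 had 910 and 684 RPM with the Hsp90aa1 shRNA against 9669 and 10567 RPM with the negative-control shRNA. The bin at bases 701 to 800 had 856 and 350 RPM with the Hsp90aa1 shRNA against 2207 and 3103 RPM, most of it from the start at base 753. Toward the 3′ end, bases 1701 to 1800 had 896 and 619 RPM with the Hsp90aa1 shRNA against 4073 and 3882 RPM. The bins differ in fragment length and in how many of their fragments are listed, and the part of these in the pattern was not tested.

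**Figure D5:**
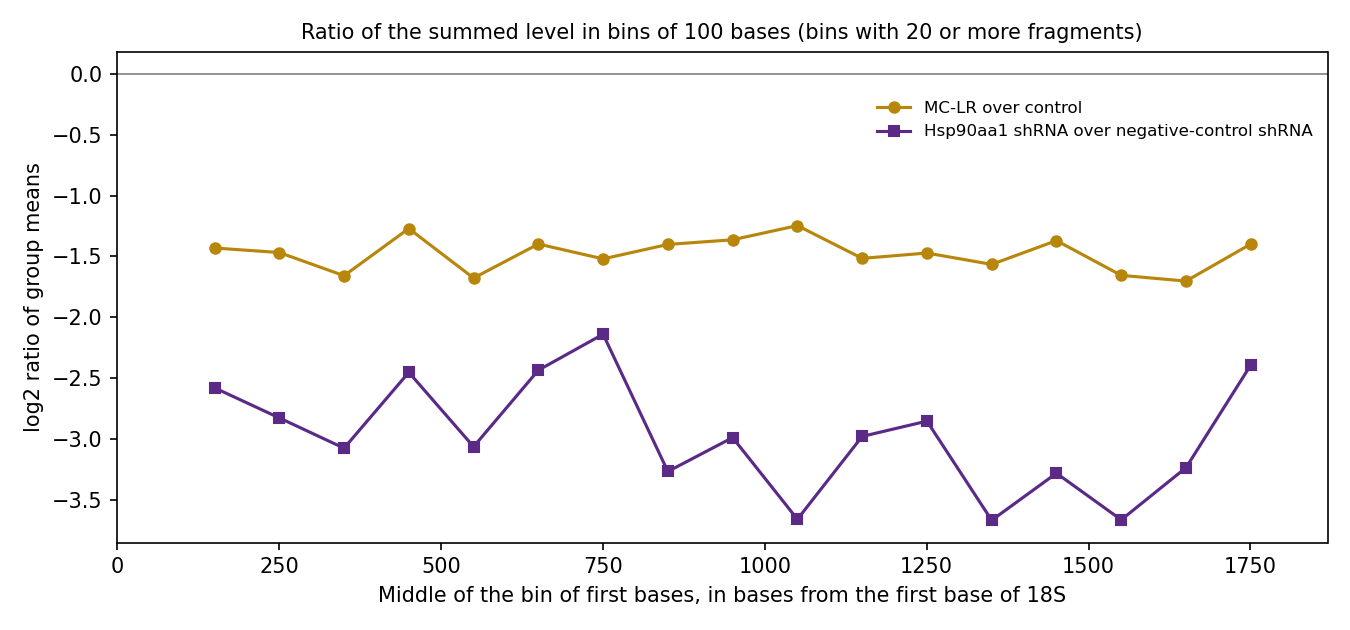
log2 ratio of the group means of the summed level (vertical axis) in bins of 100 bases of 18S (horizontal axis), for MC-LR over control (circles) and Hsp90aa1 shRNA over negative-control shRNA (squares), for bins with at least 20 fragments. The MC-LR points lie between -1.70 and -1.25 and the shRNA points between -3.67 and -2.14.

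By length, fragments of 17 to 24 nt summed to 2718 and 834 RPM with the Hsp90aa1 shRNA against 14577 and 23910 RPM with the negative-control shRNA, 10.8-fold lower. Those of 25 to 28 nt summed to 3138 and 2150 RPM against 18313 and 17272 RPM, 6.73-fold lower, and those of 29 to 35 nt to 1686 and 2216 RPM against 16334 and 9875 RPM, 6.72-fold lower. The folds depend on which libraries are set against each other. Over the 4 pairs the fold runs from 5.36 to 28.7 for the short class, from 5.50 to 8.52 for 25 to 28 nt and from 4.46 to 9.69 for 29 to 35 nt. Under MC-LR the classes were 2.84-fold, 2.74-fold and 2.94-fold lower than in control, in the same order of length. Over the 4 pairs these folds run from 1.96 to 3.81, from 2.35 to 3.20 and from 2.18 to 3.75.

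The 5 largest falls with the Hsp90aa1 shRNA, among fragments of at least median level, were 4 short fragments and a longer one. They are printed because 3 of them share their last base.
piR-mmu-49522360, from base 1383: ataacgaacgagactctggc
piR-mmu-50112629, from base 1384: taacgaacgagactctggc
piR-mmu-49538135, from base 1385: aacgaacgagactctggc
piR-mmu-49410929, from base 508: cccggggaggtagtgacg
piR-mmu-2627826, from base 1443: ccaacttcttagagggacaagtggcgttc

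The first 3 all end at base 1402. Of these, piR-mmu-50112629 and piR-mmu-49538135 had means of 0.700 and 0.999 RPM with the Hsp90aa1 shRNA, below the 1 RPM needed for testing. They were tested only through their level in the negative-control libraries. The 20 nt fragment piR-mmu-49522360 had 2.17 and 0.185 RPM with the Hsp90aa1 shRNA against 69.6 and 146 RPM with the negative-control shRNA, from 31 reads against 2625 reads in the pooled libraries. The ratio of pooled reads per total was 88.7, with a 95% exact interval of 62.3 to 131 that covers counting error only. Its log2 fold change was -5.71 ± 0.63 (SE, limma, adjusted p = 0.000582). In the MC-LR table it had 83.5 and 70.6 RPM under MC-LR against 231 and 100.2 RPM in control, and it did not pass there (limma, adjusted p = 0.0544). The 29 nt fragment piR-mmu-2627826 had 1.57 and 1.75 RPM with the Hsp90aa1 shRNA against 107 and 109 RPM with the negative-control shRNA, the closest replicates of the 5, and a log2 fold change of -5.36 ± 0.51 (SE, limma, adjusted p = 0.000582). It is listed at 2 loci. Under MC-LR the same fragment had 7.91 and 7.62 RPM against 14.3 and 15.1 RPM in control, a log2 fold change of -0.84 ± 0.34 (SE, limma, adjusted p = 0.0421). The 18 nt fragment piR-mmu-49410929 had 3.22 and 0.554 RPM with the Hsp90aa1 shRNA against 49.8 and 158 RPM, and 87.2 and 82.6 RPM under MC-LR against 684 and 241 RPM in control.

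Among the fragments of the shRNA table that were lower also relative to the other listed names, several share the 3′ end at base 1813, a group chosen after its values were seen. The only fragment called lower with TMM factors was piR-mmu-49467542 (20 nt, bases 1794 to 1813), and it was also called by DESeq2 and on the list-sum scale, where piR-mmu-49522360 and piR-mmu-2627826 were the other two. It had 3 and 1 reads with the Hsp90aa1 shRNA against 162 and 310 reads with the negative-control shRNA. These fits use the same libraries. Its level with the Hsp90aa1 shRNA was below 1 RPM. The fragment thus entered them only through the negative-control libraries, and its calls carry no weight. Its ratio of pooled reads per total was 124, with a 95% exact interval of 48.0 to 456 from counting alone. The longest fragment with this end is shown with piR-mmu-49467542 in capitals.
piR-mmu-3466003, bases 1782 to 1813: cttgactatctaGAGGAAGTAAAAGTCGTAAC

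The 10 fragments with this end in the shRNA table, of 20 to 32 nt, summed to 9.28 and 6.09 RPM with the Hsp90aa1 shRNA against 368 and 270 RPM with the negative-control shRNA, 41.5-fold lower. Their share of all the fragments' level was 0.123% and 0.117% with the Hsp90aa1 shRNA against 0.747% and 0.528% with the negative-control shRNA. For example, piR-mmu-2712508 (26 nt) had 1.42 and 1.38 RPM with the Hsp90aa1 shRNA against 59.3 and 40.4 RPM with the negative-control shRNA. DESeq2, which also centres the listed names, called 25 of the 1051 fragments with an adjusted p lower, where 3% of all such names were. Of the 25, 13 begin at bases 1301 to 1400, and piR-mmu-49467542, piR-mmu-37289813, piR-mmu-10847920, piR-mmu-11208143, piR-mmu-2712508 and piR-mmu-2862530 end at base 1813. The 13 include piR-mmu-49499062, piR-mmu-50112629 and piR-mmu-49538135, with means of 0.887, 0.700 and 0.999 RPM with the Hsp90aa1 shRNA. Elsewhere piR-mmu-51190856 had 0.607 RPM. All of these entered the fit only through the negative-control libraries, so their calls carry no weight. Like piR-mmu-49467542, the fragments piR-mmu-37289813, piR-mmu-10847920 and piR-mmu-11208143 had a mean below 1 RPM with the Hsp90aa1 shRNA. They too entered the fit only through the negative-control libraries. The same holds for 3 others with this end that DESeq2 did not call. With the Hsp90aa1 shRNA, piR-mmu-2841105 had 0.225 and 0.0923 RPM, piR-mmu-3640080 0.449 and 0.185 RPM, and piR-mmu-3466003 0.299 and 0.369 RPM. Most of the 10 fragments summed above were thus low in that group, and the sum and share were not tested. The end at base 1813 is shared by 8 fragments of the MC-LR table. They summed to 34.7 and 40.1 RPM under MC-LR against 109 and 82.5 RPM in control, 2.56-fold lower, and their share was 0.117% and 0.151% under MC-LR against 0.130% and 0.109% in control, with overlapping groups.

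The mature 3′ end of the 18S RNA is base 1849, where a nuclease separates it from the first internal transcribed spacer. The junction is shown with the last 30 bases of 18S in capitals (chr17:39848172-39848231), because no fragment in either table crosses it.
18S end and spacer: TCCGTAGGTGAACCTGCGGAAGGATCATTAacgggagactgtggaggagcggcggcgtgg

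The fragment piR-mmu-8120843 (17 nt, listed at 2 loci), named for its position, was the only one to end exactly at base 1849. It had 2.36 and 3.05 RPM under MC-LR against 7.58 and 2.02 RPM in control (limma, adjusted p = 0.352), and 0.599 and 0.739 RPM with the Hsp90aa1 shRNA against 3.71 and 9.87 RPM with the negative-control shRNA (limma, adjusted p = 0.00166). Past the end, piR-mmu-12087569 (25 nt from base 1850) had 10 and 18 reads under MC-LR against 60 and 20 reads in control, or 1.68 and 2.74 RPM against 4.10 and 4.03 RPM (limma, adjusted p = 0.0913). In the shRNA table piR-mmu-36564503 (23 nt from base 1850) had 5 and 1 reads with the Hsp90aa1 shRNA against 8 and 24 reads with the negative-control shRNA. The fragment piR-mmu-12400701 (26 nt from base 1851) had 3 and 4 reads with the Hsp90aa1 shRNA against 12 and 14 reads. These 2 fragments, and piR-mmu-8120843 in the shRNA table, entered the test only through their level in the negative-control libraries. Their adjusted p-values in limma, 0.00754 and 0.00667 for these 2 and 0.00166 for piR-mmu-8120843, therefore carry no weight. The fragments inside the 18S held nearly all of the level in each library: 99.9943% and 99.9896% under MC-LR against 99.9951% and 99.9947% in control, and 99.9921% and 99.9911% with the Hsp90aa1 shRNA against 99.9958% and 99.9944% with the negative-control shRNA (exact 2-sided permutation test, p = 0.333 in both). The remainder rests on the few reads past the end given above.

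Other ribosomal names give the setting. The upstream part of the same copy, which carries the external spacer, had 44 names in the MC-LR table. They summed to 282 ± 42.7 RPM under MC-LR and 1563 ± 3.65 RPM in control (SD, n = 2 each), with a median log2 fold change of -1.93 beside -1.17 for the 18S fragments. In the shRNA table its 48 names summed to 104 ± 69.7 RPM with the Hsp90aa1 shRNA and 1211 ± 275 RPM with the negative-control shRNA, with a median of -2.75 beside -1.72. Names kept at other annotated ribosomal RNA loci numbered 52 and 123, with medians of -0.87 and -1.81. The 1168 and 1265 names that also lie in the window but were kept at an earlier locus had medians of -1.32 and -1.90. These differences between lists were not tested. Of the fragments in both tables, 3422 were tested in both and 2668 of them were lower in both comparisons, which share no library. That is 78.0% of them, beside 78.5% of all names tested in both tables.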

How the data were processed

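The 2 deposited tables, analysed separately, give RPM per locus for a listed name in 4 libraries each. The processing notes of the submitters name HTSeq 0.6.0, HISAT2 2.1.0 and Bowtie2 2.2.3 with the build mm10. No source used here gives their roles, the trimming, where the names came from or how names were chosen for listing. Whole reads and library totals were recovered from the RPM values the authors deposited, since 100% of them are a whole number of reads within 0.01. A count of 3 reads is 0.205 to 0.605 RPM, and such limits cover counting error only. Starts were read as 0-based, since 74 and 118 plus-strand loci then match a mature microRNA start, against 15 and 28 otherwise.

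Names that reached a group mean of 1 RPM were tested with limma 3.58.1 (trend, robust) in R 4.3.3 on log2(RPM + 1), with Benjamini-Hochberg adjustment over the table at 0.05; fold changes on this scale understate the change of low names. The pseudocount, the filter, the scaling, edgeR 4.0.16 and DESeq2 1.42.0 on recovered reads, the replicate letter as a block, the kept locus and each library left out were tried as alternatives. The fit was tested on simulated data. For single values an exact permutation test over libraries was used. Fragment sequences came from the GENCODE M21 transcripts of CT010467.1 and Gm42418 (mm10), whose bases were the same over the 1244 they share; gene names came from GENCODE and RefSeq. The named fragments are the 6 most abundant, the 5 largest rises (there were 0) and falls past the threshold with groups apart and at least median level, the most abundant of each segment and length class, and the longest and shortest at the 5 strongest starts; fragments named outside this rule are said to be chosen after their values were seen. The members, lists and tests were chosen with earlier results of these data known.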

Additional observations from a re-analysis of the deposited data

How the results depend on the processing

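Among 143 recomputed values, 24 moved, 5 reversed, and 114 kept their direction and, where tested, their side of the threshold, though not always their size. The fragments' count called lower under MC-LR was 2983. It was 26 when scaled to the listed names, 13 with TMM factors in edgeR and 16 in DESeq2. Over fragments at a single locus, 2554 before the filter on level, it was 1966. The count for the Hsp90aa1 shRNA was 4689, and it was 3, 1 and 25 under the same scalings. Over fragments at a single locus, 2899 before the filter, it was 2832, and with a mean of at least 5 RPM it was 2203. The single-locus and 5 RPM sets are smaller, so lower counts there do not by themselves mean lost calls. The shares of all names called in those sets were not computed. The MC-LR median of -1.17 reversed to 0.021 on the list-sum scale, 0.11 with TMM factors and 0.091 in DESeq2, where the listed names are centred by construction, and was -1.33 with a pseudocount of 0.5, -1.30 with at least 5 RPM, -1.58 in edgeR on library totals and -1.21 over single-locus names. The shRNA median of -1.72 was -0.086, -0.17 and -0.11 on the 3 centred scales, and -2.10, -2.27 and -2.97 with the pseudocount of 0.5, at least 5 RPM and edgeR on library totals. The log2 ratio of the summed level under MC-LR reversed to 0.095 on the list-sum scale, and with the Hsp90aa1 shRNA it was -0.074 there, against -2.98.

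Leaving out each library in turn gave 1425 to 3218 fragments lower under MC-LR, with 0 to 1 higher, and 4249 to 4592 lower with the Hsp90aa1 shRNA. Each of these fits leaves a single library in a group, so these counts carry no weight and only effect sizes are read. The medians ran from -1.22 to -1.16 under MC-LR and from -1.87 to -1.62 with the shRNA. The difference in mean length under MC-LR, -0.15 nt, ran from -1.07 to 0.78 nt and reversed without control B. The difference in mean length with the Hsp90aa1 shRNA, 1.00 nt, ran from 0.01 to 1.99 nt, and was 2.21 nt over all names with a row in the window, an alternative chosen after seeing the data.

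Libraries of the same letter did not deviate together: deviations from the group means correlated at 0.07 in the MC-LR table and -0.61 in the shRNA table. This cannot show whether A and B were paired, and the labels state no pairing. With the replicate block, 2980 fragments were lower under MC-LR and 4617 with the Hsp90aa1 shRNA. The crossed replicate block, chosen after seeing the data, called 4697 lower with the Hsp90aa1 shRNA. The shares of all names called in these block fits were not computed. In the fits without a block, 73.1% and 99.5% of all tested names were called lower, so these counts are not particular to the fragments.

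Depth limits low fragments most, since the median fragment had 5 and 8 reads in the Hsp90aa1 shRNA libraries.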
